A study of Drosophila melanogaster with 12 samples.

Results

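General membrane trafficking genes are the genes that build, target and fuse the vesicles that carry proteins and lipids between the compartments of a cell. They were chosen by current gene symbol: the Rab, Arf and Arl families, syntaxins (Syx), the numbered Sec and Vps genes, COPI coat subunits, exocyst subunits of the Exo family, sorting nexins (Snx), Chmp genes, ALiX and the clathrin chains Chc and Clc, without the synaptic genes Rab3 and Syx1A. The symbols were matched whole from the start, so the choice also takes Rab3-GAP, a regulator of a Rab protein, and Arl6IP1, a membrane protein of the endoplasmic reticulum. Of 120 such symbols in RefSeq, 64 were named on the array, and all 64 had a value on at least 1 of the arrays, of 6646 genes with a value in all. By known role, 21 were grouped as secretory, 31 as endosomal, and 12 were given no role. The 64 genes held no syntaxin, no Arf gene and none of Rab1, Rab5, Rab7 and Rab11, so nothing below covers these. The choice went by symbol and known role, but it was made with earlier results of these data known.

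Proteins of the secretory route enter the endoplasmic reticulum through the Sec61 translocon, leave it in COPII vesicles, are retrieved from the Golgi by COPI vesicles, and reach the cell surface in vesicles that the exocyst tethers. Proteins of the endosomal route are taken in through clathrin-coated pits, and at endosomes they are either sent back by retromer and sorting nexins or sorted by the ESCRT machinery into vesicles bound for the lysosome, with which HOPS tethers endosomes. Rab GTPases mark the compartments and SNARE proteins fuse the membranes, and neurons of the fly head use both routes to supply and renew the synapse.

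The study fed pentylenetetrazol (PTZ), a convulsant that blocks GABA-A receptors, to flies and followed heads during withdrawal. The tested heads came from unmated Oregon-R wild-type males of Drosophila melanogaster kept on food with 8 mg/ml PTZ for 7 days, 30 flies to a vial at the start, and then on normal food for 1, 3 or 7 days, so that heads were taken on day 8, day 10 and day 14. The flies were 3 to 4 days old at the start per the series text and 4 to 5 days old per the labels. Control heads came from males of the same stock kept on normal food throughout and taken on the same day. Each of the 12 arrays, 4 a day, set PTZ-withdrawn heads against control heads in 2 colours on a spotted cDNA slide, and the labels call the 4 arrays of a day biological replicates. RNA was extracted from pooled frozen heads collected on sieves, so each value averages brain, eye, fat body, muscle and other head tissue, and fewer cells of a type cannot be told apart from less RNA per cell.

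Values are log2 ratios (base 2 was assumed, since the sources used here name none) with the median of each array set to 0, averaged over the spots of a gene. A value above 0 is read as higher in PTZ-withdrawn heads than in control heads of that day. That direction is not settled: by the channel labels PTZ-withdrawn heads were in Cy5 on every one of the 12 arrays, whereas the series text describes a dye swap on 2 of the 4 arrays of a day. For day 10 replicates 1, 2 and 3 the labelling protocol assigns Cy3 to PTZ-treated flies. Values are therefore given as above or below 0. Ratios carry no level of expression, so the labelled tissue could not be checked against marker genes.

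The 4 columns of day 8 were identical at every spot where 2 of them held a value, for example at 4790 of 4790 spots for replicates 1 and 2, and count as 1 sample with no test. The members had values for 25 of 64 genes in the day 8 sample, for 44 to 58 genes on the arrays of day 10 and for 16 to 57 genes on those of day 14, where replicate 4 held the fewest. All genes were thinned in the same way, to 17.7% of 6646 genes on day 14 replicate 4, against 25% of the members. The paired spots of a gene differed with an SD of 0.62 in the day 8 sample, against 0.283 to 0.418 on day 10 arrays and 0.252 to 0.452 on day 14 arrays. The deposited columns had medians of 0.16 to 0.194 at day 8, -0.309 to -0.198 at day 10 and 0.558 to 1.588 at day 14, and everything below is relative to those medians. Marker lists of other tissues stood away from 0 on some days: 2 measured genes of the list of female germ line and yolk genes had a median of 1.33 at day 8, 4 had one of 0.37 at day 10 and 2 had one of -0.26 at day 14, and 3 testis genes had one of 0.62 at day 10. The part of these tissues in the members' values was not tested.

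The trafficking genes stayed close to the middle of the arrays. Over the members the median log2 ratio was -0.05 at day 8 (12 of 25 above 0), 0.03 at day 10 (27 of 48 above 0) and -0.02 at day 14 (12 of 30 above 0), beside medians of 0.00, 0.01 and 0.01 over all genes. Of all genes, 50.6%, 53.1% and 52.2% lay above 0 at these days. At day 10 the interquartile range of the 48 tested members was -0.11 to 0.18, and the extremes were Chmp1 at -0.32 and Sec5 at 0.92. At day 14 the 30 tested members ran from betaCOP at -0.45 to alphaCOP at 0.20, so 0 of 30 had a mean beyond 0.5, beside 1.06% of all genes. The SD over the members was 0.48, 0.22 and 0.16 at days 8, 10 and 14, and over all genes it was 0.49, 0.23 and 0.18, so the members spread about as widely as other genes.

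**Figure D1:**
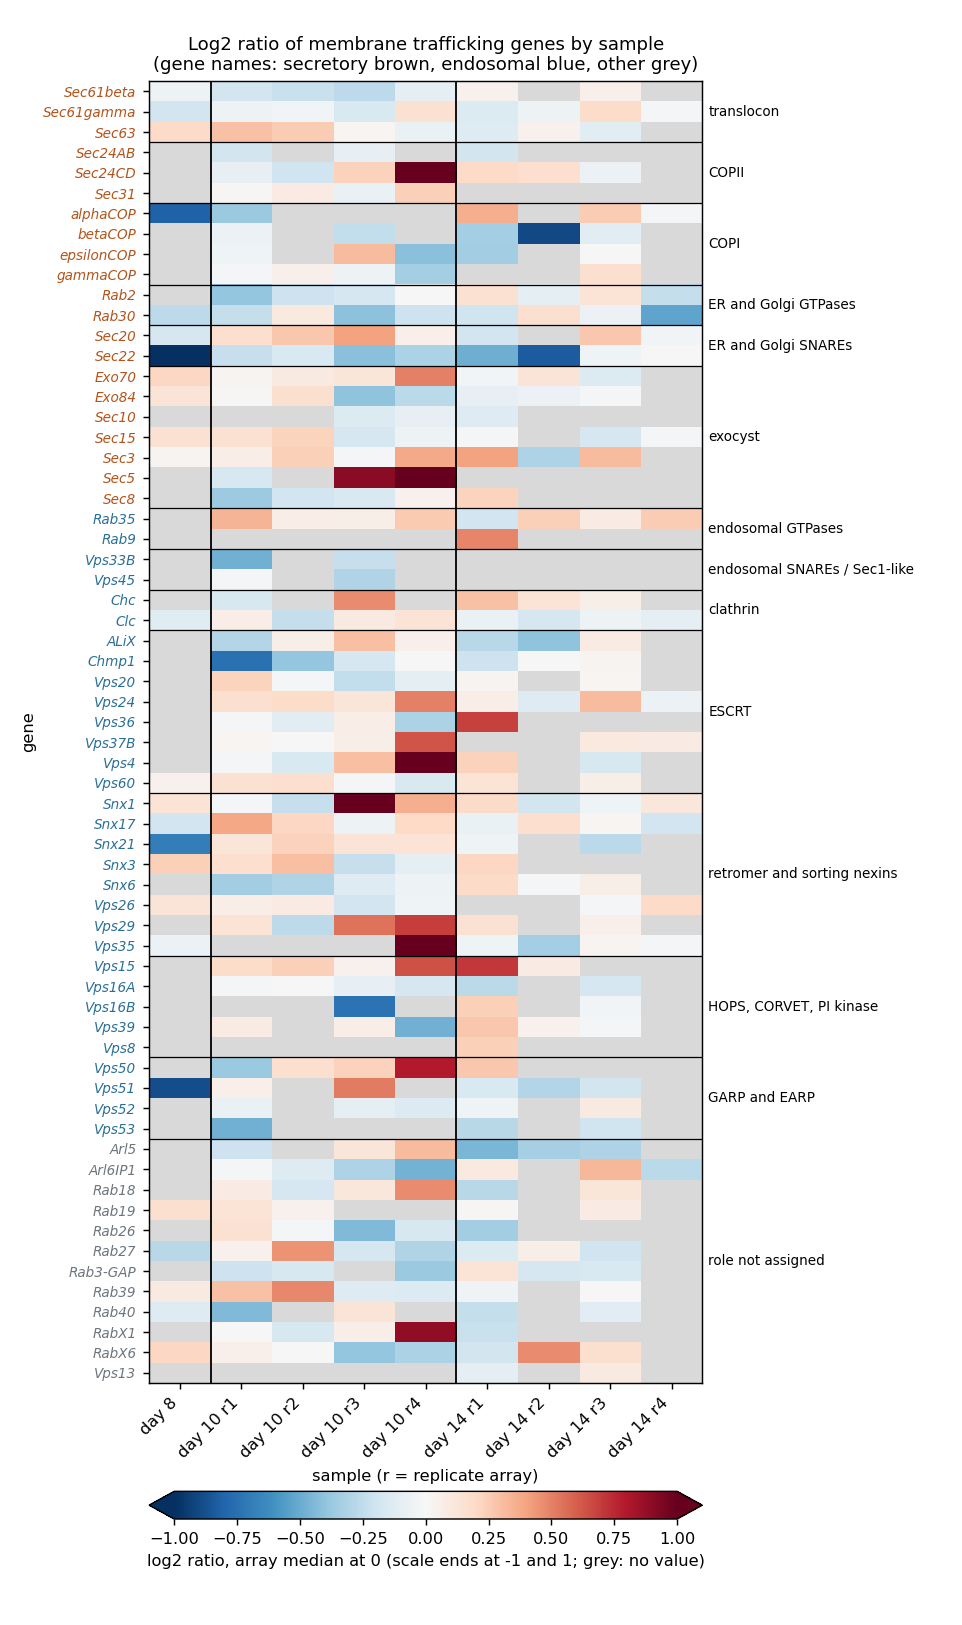
Log2 ratio of each of the 64 genes (rows, grouped by role) in the day 8 sample and on each array of days 10 and 14 (columns), with the array median at 0. Blue is below 0, red above 0 and grey has no value. The colour scale is cut off at both ends, so the most extreme values share the deepest colours. The lowest value is that of Sec22 at day 8 (-1.91) and the highest that of Sec5 on day 10 replicate 4 (2.00). Most other cells are pale.

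No member passed the test against 0 at day 10 or day 14, and none passed the test of the difference between these days. A mean per day was fitted with limma to the 8 arrays of days 10 and 14 for genes with values on at least 3 of the 4 arrays, and p-values were adjusted by Benjamini-Hochberg over all genes tested. At an adjusted p under 0.05, 0 of 48 members passed at day 10, 0 of 30 at day 14 and 0 of 25 for the difference, and over all genes 0% of 4661, 3010 and 2385 did. The smallest adjusted p of a member was 0.314 at day 10, 0.656 at day 14 and 0.641 for the difference, and one-class SAM also called 0 members at day 10 and 0 at day 14. At an unadjusted p under 0.05, 3 of 48 members passed at day 10 (Chmp1, Sec5 and Vps24), or 6.25% beside 13.2% of all genes. At day 14, 3 of 30 passed (Arl5, betaCOP and Sec22, all below 0), or 10% beside 6.64%. For day 14 minus day 10, 1 of 25 passed (Arl5), or 4% beside 7.21%.

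The arrays limit how large a shift could have gone unseen only if their signs are right and the arrays of a day are independent. The signs are in doubt, and day 10 values ran together within pairs of arrays, as given below. The 95% interval of the mean lay within 0.5 of 0 on either side for 36 of 48 members at day 10 and 22 of 30 at day 14, and within 1 for 47 and 30. For the difference between the days it lay within 0.5 for 8 of 25 members and within 1 for all 25. Only the widest interval at day 10, that of Sec5, passed 1. A further 11 members had too few values to be tested at either day (Rab19, Rab40, Rab9, Sec10, Sec24AB, Vps13, Vps16B, Vps33B, Vps45, Vps53 and Vps8).

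Agreement between arrays was also near that of other genes. At day 10, 12 of 48 members had 1 sign on every array measured, 6 above 0 and 6 below, which is 25% beside 25.3% of all genes. At day 14, 7 of 30 did, 1 above 0 (Chc) and 6 below (Arl5, betaCOP, Clc, Exo84, Sec15 and Vps51), which is 23.3% beside 27.2%. Of 25 members tested at both days, 13 had means of 1 sign, or 52% beside 55.8% of all genes.

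Secretory members were set against endosomal members on each array. In the day 8 sample the medians were -0.05 over 11 secretory members and -0.06 over 9 endosomal members, a difference of 0.01. At day 10 the secretory medians were -0.05, 0.08, -0.11 and -0.03 on replicates 1 to 4, against endosomal medians of 0.02, 0.03, 0.05 and 0.14. At day 14 they were -0.11, -0.05, -0.01 and -0.02, against endosomal medians of 0.14, -0.01, 0.02 and 0.03. The secretory median was the lower one on 3 of 4 arrays at day 10 and on 4 of 4 at day 14. These medians rest on 15 to 20 secretory and 20 to 27 endosomal genes an array at day 10. At day 14 they rest on 18 and 27 genes on replicate 1 and 10 and 13 on replicate 2. Replicate 3 held 16 and 23 genes and replicate 4 only 7 and 8, so the arrays do not weigh equally. The mean difference was -0.09 ± 0.10 (SD, n = 4) at each of these days. Its size is below the SD between arrays, which is no test of the mean against 0. At day 14 the difference was -0.244 on replicate 1 and -0.059 to -0.032 on replicates 2, 3 and 4. Taken over gene means of the tested members, secretory minus endosomal was -0.06 at day 10 and -0.01 at day 14. It was -0.12 and -0.08 over genes with values on all 4 arrays, and -0.11 and -0.04 over genes with values on at least 2. Its sign changed with some turns of the doubted array signs and not with others. With replicates 3 and 4 turned it was 0.01 at day 10 and 0.05 at day 14, and with 2 and 3 turned 0.00 and -0.03. With 2 and 4 turned it was -0.06 and -0.03, and with day 10 replicates 1, 2 and 3 turned it was 0.07 at day 10. At day 10, 8 of 17 secretory members (47.1%) lay above 0 against 14 of 22 endosomal members (63.6%), beside 53.1% of all genes. At day 14, 4 of 13 (30.8%) did against 6 of 12 (50%), beside 52.2% of all genes. No p is given for these contrasts, because the genes of a class are not replicates.

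**Figure D2:**
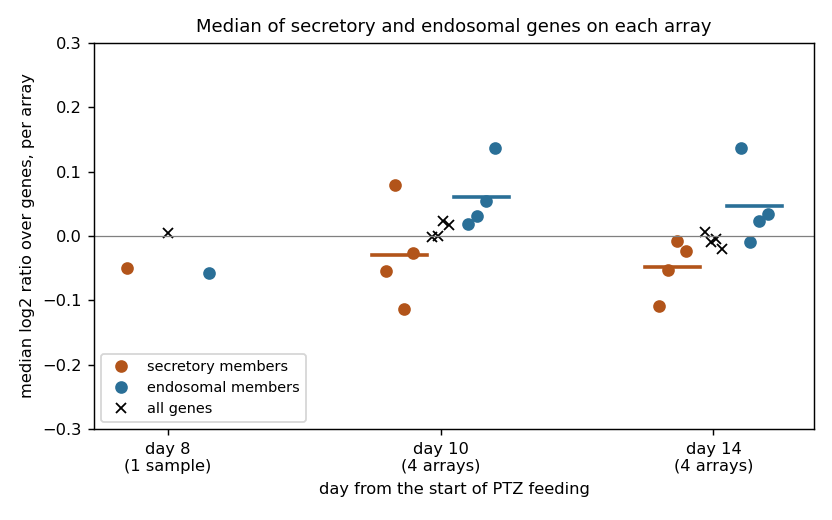
Median log2 ratio per array over secretory members (brown, left), endosomal members (blue, right) and all genes (crosses, middle) at days 8, 10 and 14; bars mark the mean of 4 arrays. The secretory points lie below the endosomal points on 7 of the 8 arrays of days 10 and 14, and every point lies within 0.15 of 0. On these arrays a point rests on 7 to 20 secretory or 8 to 27 endosomal genes, fewest on day 14 replicate 4.

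Among the secretory genes, the translocon stayed near 0. Sec61beta, a subunit of the protein-conducting channel of the endoplasmic reticulum, had -0.05 in the day 8 sample, -0.18, -0.22, -0.26 and -0.10 at day 10, and 0.04 and 0.05 on the 2 arrays of day 14 that measured it. All 4 day 10 values were below 0, with a mean of -0.19 ± 0.07 (SD, n = 4), and the adjusted p in limma was 0.406. Sec61gamma, the other small subunit of the channel, had -0.18 at day 8, -0.05, -0.03, -0.15 and 0.15 at day 10, and -0.14, -0.05, 0.18 and -0.02 at day 14, on both sides of 0. Sec63, which recruits the chaperone BiP to the channel, had 0.19 at day 8, 0.29, 0.25, 0.02 and -0.07 at day 10, and -0.13, 0.04 and -0.11 at day 14. Its day 14 mean was -0.07 and its day 10 mean 0.12, and the 95% interval of the difference, -0.53 to 0.15, holds 0.

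The COPII genes Sec24AB, Sec24CD and Sec31 had no value at day 8. Sec24CD, a cargo-binding subunit of the inner coat, and Sec31, of the outer coat, had means of 0.25 and 0.06 at day 10, and Sec24CD had 0.10 at day 14. The mean of Sec24CD at day 10 rests on replicate 4 (1.04), the other 3 arrays lying between -0.20 and 0.23.

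COPI subunits lay on both sides of 0. betaCOP, one of the large subunits of this coat, had -0.34, -0.90 and -0.11 on day 14 replicates 1, 2 and 3, and -0.06 and -0.25 on the 2 arrays of day 10 that measured it. All 5 values were below 0. The day 14 mean was -0.45 ± 0.41 (SD, n = 3; SE of the fit 0.16), the lowest among the tested members, with an unadjusted p of 0.0248 and an adjusted p of 0.656 in limma. Its 2 spots disagreed on day 14 replicate 2, at -0.33 and -1.48. The mean was 0.15 with the signs of replicates 2 and 4 turned, 0.23 with 2 and 3 turned and -0.38 with 3 and 4 turned. alphaCOP, another large subunit, had 0.36, 0.25 and -0.02 on day 14 replicates 1, 3 and 4, the highest mean of that day among the tested members (0.20 ± 0.20, adjusted p = 0.809 in limma), -0.37 on the 1 array of day 10 that measured it, and -0.81 at day 8. The day 8 value averages spots at 0.20 and -1.82, of opposite sign. epsilonCOP and gammaCOP had day 10 means of -0.05 and -0.09.

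The Golgi GTPases Rab2 and Rab30 lay slightly below 0. Rab30 had -0.26 at day 8, -0.24, 0.10, -0.41 and -0.21 at day 10 and -0.20, 0.16, -0.06 and -0.53 at day 14. Replicate 2 was above 0 at both days and the other 6 arrays were below. The means were -0.19 ± 0.21 at day 10 and -0.16 ± 0.29 at day 14 (SD, n = 4 each; adjusted p = 0.529 and 0.815 in limma). Rab2, which acts between the endoplasmic reticulum and the Golgi and on the way to the lysosome, averaged -0.19 and -0.01 at these days.

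Sec22 lay at or below 0 in nearly every sample. It is a SNARE of vesicles that run between the endoplasmic reticulum and the Golgi. It had -1.91 at day 8, -0.23, -0.15, -0.42 and -0.32 on the arrays of day 10, and -0.49, -0.83, -0.04 and 0.00 on those of day 14. The day 8 sample held its lowest value, and all 4 day 10 arrays lay below 0, while at day 14 replicates 1 and 2 lay well below 0 and replicates 3 and 4 at about 0. The means were -0.28 ± 0.12 at day 10 (95% interval -0.58 to 0.02, adjusted p = 0.391 in limma) and -0.34 ± 0.40 at day 14 (95% interval -0.64 to -0.04, adjusted p = 0.685). With signs turned as above the mean ran from -0.05 to 0.12 at day 10 and from -0.32 to 0.10 at day 14. The 2 spots of the gene read -1.43 and -2.38 at day 8, so both lay far below 0 in a sample whose paired spots scattered most. At 4%, members beyond 1 in either direction at day 8 (Sec22 alone, 1 of 25) were about as common as among all genes (4.27% of 2132).

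Sec20, another SNARE of this route, lay above 0 at day 10. It had -0.17 at day 8, 0.17, 0.27, 0.40 and 0.05 at day 10, and -0.19, 0.27 and -0.03 on day 14 replicates 1, 3 and 4. All 4 day 10 arrays were above 0, with a mean of 0.22 ± 0.15 (SD, n = 4) and an adjusted p of 0.403 in limma.

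The exocyst, which tethers secretory vesicles to the plasma membrane, held the highest day 10 mean of the tested members. Sec5 had -0.16, 0.90 and 2.00 on day 10 replicates 1, 3 and 4 and no value on any other array. Replicate 1 lay below 0 and replicates 3 and 4 far above it. Its 2 spots read 1.16 and 0.65 on replicate 3 and 1.91 and 2.10 on replicate 4. The mean was 0.92 ± 1.08 (SD, n = 3; SE of the fit 0.35), with an unadjusted p of 0.0351 and an adjusted p of 0.334 in limma. Sec5 was the 1 member of 48 with a mean beyond 0.5 at day 10, or 2.08% beside 4.51% of all genes. Without replicate 1 its mean was 1.45 with an adjusted p of 0.046 in limma. That call rests on replicates 3 and 4 alone, whose values ran together over all genes (r 0.55). In that setting 79 of 4661 genes were called, beside 1 of 48 members. Without replicate 4 the mean of Sec5 was 0.37 with an adjusted p of 0.777, so 1 array decides the call. Its mean also turns with the doubted signs: it was -1.02 with replicates 3 and 4 turned, -0.42 with 2 and 4, 0.31 with 2 and 3, and 0.42 with 1, 2 and 3.

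The other exocyst subunits were near 0. Exo70 had 0.21 at day 8, 0.03, 0.09, 0.12 and 0.50 at day 10 and -0.03, 0.13 and -0.14 at day 14. Sec15, which binds the recycling GTPase Rab11, had 0.15 at day 8, 0.15, 0.22, -0.17 and -0.05 at day 10 and -0.02, -0.17 and -0.02 at day 14. Both had day 14 means within 0.10 of 0. Exo84 had 0.13 at day 8, 0.01, 0.16, -0.40 and -0.27 at day 10 and -0.08, -0.06 and -0.01 at day 14. Sec3 had 0.03 at day 8, 0.07, 0.24, -0.01 and 0.38 at day 10 and 0.40, -0.31 and 0.32 at day 14. All 4 exocyst subunits measured at day 8 were above 0, by 0.03 to 0.21, and 4 of 6 were above 0 at day 10 and 1 of 4 at day 14. The shares of all genes above 0 were 50.6%, 53.1% and 52.2%. Sec8 had the lowest day 10 mean of the complex, -0.17.

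Among the endosomal genes, the clathrin chains differed in sign at day 14. Chc, the heavy chain that forms the coat, had 0.29, 0.14 and 0.06 on day 14 replicates 1, 2 and 3, and -0.16 and 0.47 on the 2 day 10 arrays that measured it. The day 14 mean of 0.16 ± 0.12 (SD, n = 3) was the highest of the tested endosomal genes (adjusted p = 0.849 in limma). Clc, the light chain, had -0.12 at day 8, 0.07, -0.24, 0.09 and 0.14 at day 10, and -0.07, -0.17, -0.05 and -0.09 at day 14. Its 4 day 14 arrays were all below 0 by little, with a mean of -0.09 ± 0.05 (adjusted p = 0.870 in limma).

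ESCRT genes, all 8 of which were tested at day 10, held both the lowest and the highest mean of that day among the tested endosomal genes. Chmp1, a regulator of the filament that cuts vesicles into the endosome, had -0.75, -0.39, -0.17 and 0.00 on day 10 and -0.21, 0.00 and 0.03 on day 14 replicates 1, 2 and 3. The day 10 mean of -0.32 ± 0.32 (SD, n = 4; SE of the fit 0.13) had an unadjusted p of 0.0284 and an adjusted p of 0.314 in limma, the smallest of any member. It rests mainly on replicates 1 and 2, and was 0.33 with the signs of replicates 1, 2 and 3 turned and -0.24 to -0.05 with those of 2 arrays turned. Vps24, a subunit of the filament, had 0.16, 0.18, 0.12 and 0.50 at day 10, all above 0, and 0.07, -0.13, 0.32 and -0.06 at day 14. Its means were 0.24 ± 0.17 (adjusted p = 0.368 in limma) and 0.05 ± 0.20 (SD, n = 4 each).

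Vps4, the ATPase that takes the filament apart, had -0.02, -0.15, 0.30 and 1.16 at day 10, a mean of 0.32 ± 0.59 (adjusted p = 0.498 in limma) that rests on replicate 4. Vps60, another filament subunit, had 0.04 at day 8 and 0.15, 0.17, -0.01 and -0.15 at day 10. ALiX, which links ESCRT to its cargo, had -0.29, 0.06, 0.30 and 0.05 at day 10 and -0.28, -0.40 and 0.08 at day 14 (mean -0.20 ± 0.25, adjusted p = 0.809 in limma). Over the class, 5 of 8 ESCRT genes were above 0 at day 10 and 1 of 3 at day 14, beside 53.1% and 52.2% of all genes.

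Retromer and the sorting nexins retrieve cargo from endosomes, and 5 of 7 (71.4%) were above 0 at day 10, beside 53.1% of all genes. Their median of 0.15 was the highest of the lists with more than 2 tested genes. Snx1 had 0.14 at day 8, -0.02, -0.23, 1.02 and 0.36 at day 10, and 0.19, -0.18, -0.04 and 0.11 at day 14. Snx17 had -0.19 at day 8, 0.39, 0.21, -0.05 and 0.20 at day 10, and -0.07, 0.17, 0.02 and -0.19 at day 14. Neither kept 1 sign at a day. Snx21 had -0.69 at day 8, from spots at -0.70 and -0.68, then 0.12, 0.23, 0.13 and 0.14 at day 10, and -0.04 and -0.27 on 2 arrays of day 14. Its 4 day 10 values lay close together, with a mean of 0.15 ± 0.05 (SD, n = 4) whose adjusted p was 0.520 in limma.

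Snx6, which in mammals is a partner of Snx1-type nexins, was on the other side of 0 at day 10. It had -0.35, -0.30, -0.13 and -0.05 at day 10, a mean of -0.21 ± 0.14 (SD, n = 4; adjusted p = 0.388 in limma), and 0.19, -0.01 and 0.06 at day 14. Snx3 had 0.24 at day 8, the highest member of that sample, and 0.17, 0.30, -0.23 and -0.09 at day 10. Of the retromer core, Vps26 had 0.13 at day 8, 0.07, 0.08, -0.19 and -0.04 at day 10, and -0.01 and 0.19 at day 14. Vps35 had -0.06 at day 8 from spots at -0.52 and 0.40, a single day 10 value of 1.09 on replicate 4, and -0.04, -0.34, 0.03 and -0.02 at day 14. Vps29 had a day 10 mean above 0 in which replicates 3 and 4 (0.54 and 0.69) stood above replicates 1 and 2 (0.14 and -0.26).

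The genes of the late endosome and of the retrograde tethers were thinly measured. Vps15, the regulatory subunit of the kinase Vps34 that makes the endosomal lipid PI3P, had 0.18, 0.24, 0.04 and 0.64 at day 10 and 0.71 and 0.08 on 2 arrays of day 14. All 6 values were above 0, and the day 10 mean was 0.28 ± 0.26 (SD, n = 4; adjusted p = 0.423 in limma). Vps39 and Vps16A of the HOPS tether had day 10 means of -0.11 and -0.07. Vps51, a subunit of the tethers GARP and EARP that receive vesicles from endosomes, had -0.89 at day 8 on 1 spot, 0.05 and 0.52 on 2 arrays of day 10, and -0.15, -0.29 and -0.18 at day 14. The 3 day 14 arrays lay below 0 with a mean of -0.21 ± 0.07 (adjusted p = 0.809 in limma), the lowest of the tested endosomal genes on that day. Its partners Vps50 and Vps52 had day 10 means of 0.20 and -0.10. Rab35, a GTPase of endocytic recycling, had day means of 0.18 and 0.10, above 0 on all 4 arrays of day 10 and on 3 of 4 at day 14, but its spots disagreed: of 4 spots, the first read 0.95, -0.06, -0.09 and -0.08 at day 10 and the second -0.09, -0.25, -0.02 and -0.22, while the third and the fourth lay between 0.15 and 0.74. The Sec1-like genes Vps45 and Vps33B had 2 day 10 values each, all 4 of them below 0.

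At day 8, 4 of the 25 members lay beyond 0.5, all below 0: Sec22 and alphaCOP of the secretory class and Vps51 and Snx21 of the endosomal class. That is 16% of the members, beside 12.1% of all genes beyond 0.5 in either direction and 9.8% below -0.5. Of these 4, alphaCOP had spots of opposite sign and Vps51 a single spot. With 1 sample the day gives no estimate of biological spread.

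Among the genes given no role, Arl5 had the smallest p for the difference between days. It is a small GTPase of the Arf-like family that in mammals is found at the trans-Golgi network. It had -0.46, -0.33 and -0.31 on day 14 replicates 1, 2 and 3, against -0.21, 0.12 and 0.32 on day 10 replicates 1, 3 and 4. Averaged over its 2 spots, the 2 days did not overlap. Its first spot alone did overlap, with -0.22, -0.20 and 0.15 at day 10 and -0.56, -0.01 and -0.42 at day 14. The share of all genes without overlap was not counted. The day 14 mean was -0.37 ± 0.08 (SD, n = 3; unadjusted p 0.0199, adjusted p = 0.656 in limma), and day 14 minus day 10 was -0.44 (SE 0.18, 95% interval -0.86 to -0.03, adjusted p = 0.641 in limma). That difference was 0.06 with the signs of replicates 3 and 4 turned, -0.01 with 2 and 4, 0.06 with 2 and 3, and -0.50 with day 10 replicates 1, 2 and 3 turned.

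Rab3-GAP had -0.21, -0.16 and -0.37 at day 10, all below 0 (mean -0.25 ± 0.11, SD, n = 3, adjusted p = 0.404 in limma), and 0.14, -0.17 and -0.15 at day 14. Arl6IP1, which shapes tubules of the endoplasmic reticulum in mammals, had -0.02, -0.13, -0.31 and -0.47 at day 10 and 0.10, 0.33 and -0.27 at day 14. Its day 10 mean was -0.23 ± 0.20 (adjusted p = 0.434 in limma). RabX6 had 0.21 at day 8, 0.05, 0.00, -0.39 and -0.32 at day 10 and -0.18, 0.47 and 0.16 at day 14. Rab27, which in mammals acts in regulated secretion, had -0.28 at day 8, 0.04, 0.45, -0.17 and -0.30 at day 10, and -0.14, 0.06 and -0.20 at day 14, and Rab39 had 0.09 at day 8 and 0.29, 0.48, -0.13 and -0.14 at day 10. In RabX6, Rab27 and Rab39 day 10 replicates 1 and 2 stood above replicates 3 and 4. Rab19 and Rab40 had 0.16 and -0.13 at day 8 and too few later values to be tested.

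**Figure D3:**
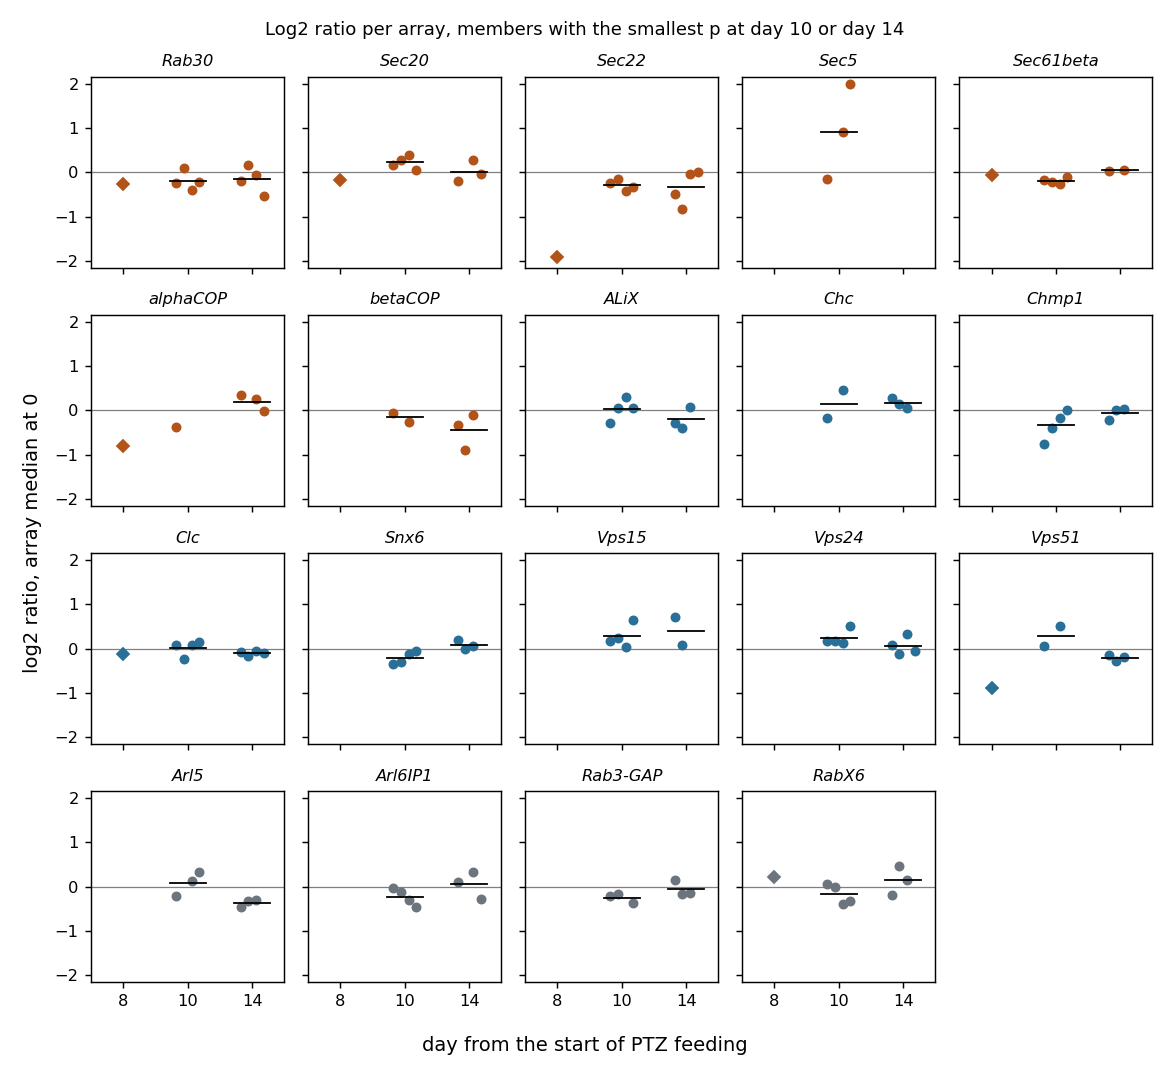
Log2 ratio of the 19 members with the 10 smallest p-values at day 10 or at day 14, 1 panel a gene, ordered as secretory (brown), endosomal (blue) and no role given (grey). Diamonds are the day 8 sample, circles the replicate arrays in order of their number, and lines the mean of a day. Sec22 at day 8 (-1.91) and Sec5 on day 10 replicate 4 (2.00) are the extreme points; no gene passed an adjusted p of 0.05.

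Day 14 was set against day 10 for the 25 members tested at both days. The median difference was -0.09, with 10 members above 0 and 15 below. That is 40% above 0, beside 48.6% of 2385 genes, which had a median of -0.01. By class the median difference was -0.06 over 11 secretory members and -0.11 over 9 endosomal members. The extremes were Arl5 at -0.44 and RabX6 at 0.31 (SE 0.20, adjusted p = 0.711 in limma). Snx6 had the second smallest p, with 0.29 (SE 0.15, 95% interval -0.04 to 0.62, adjusted p = 0.641 in limma), from a mean of 0.08 at day 14 and of -0.21 at day 10. Arl6IP1 followed at 0.28 (SE 0.19) and Snx17 at -0.21 (SE 0.15), with adjusted p of 0.722 and 0.737. Sec22 lay below 0 at both days, and its difference was -0.06 (SE 0.19).

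**Figure D4:**
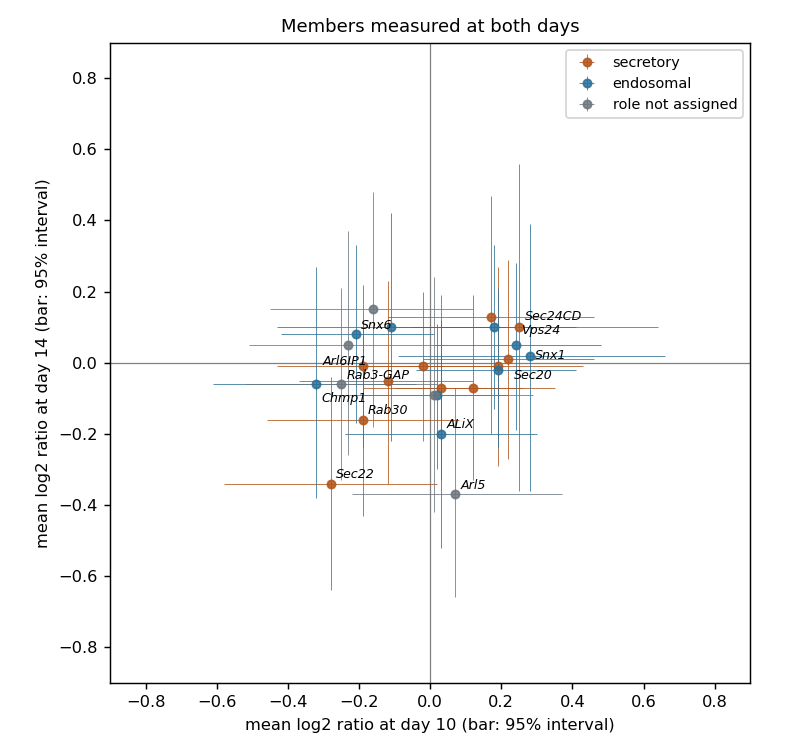
Mean log2 ratio at day 14 (vertical axis) against the mean at day 10 (horizontal axis) for the 25 members tested at both days, coloured by class, with bars for the 95% interval of each mean. Points lie on all sides of the origin and most bars cross 0; Sec22 lies lowest on the left side and Arl5 (-0.37 at day 14) lies lowest of all.

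Much of the spread at day 10 lay between 2 pairs of arrays. Across members the log2 ratios of replicates 1 and 2 had a Pearson r of 0.58 (44 genes) and those of replicates 3 and 4 an r of 0.64 (48 genes), while r between the pairs was -0.14 to 0.04. Over all genes the values were 0.50, 0.55 and -0.07 to 0.03, so the members shared this with the whole array. These correlations run across genes, which share array and hybridization and are not independent replicates. At day 14 r across members was -0.20 to 0.36. The labels do not say what joins the pairs.

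The members that ranged most over the arrays of day 10 were singled out after their values were seen. The range of a member from its lowest to its highest array had a median of 0.45 over 48 members, beside 0.47 over all genes. It was over 1 in 6 members: Sec5 (2.16), Vps4 (1.31), Snx1 (1.25), Sec24CD (1.25), Vps50 (1.16) and RabX1 (1.05). All 6 were highest on replicate 3 or 4. All genes spread more on these arrays, with an SD of 0.427 and 0.463, against 0.274 and 0.282 on replicates 1 and 2. How many of all genes with such a range were highest there was not counted. Of 42 members with a value on every day 10 array, 19 were highest on replicate 4, while 29.4% of 3317 genes were. At day 14 the widest range was that of Sec22, 0.84, and the median range was 0.34 over 30 members beside 0.41 over all genes.

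The wider trafficking machinery gave a similar picture. A list of 99 further genes (coat adaptors, the clathrin cycle, SNAREs and their recycling factors, Golgi proteins, tethers, Rab regulators, endosomal sorting and signal peptide processing) had 54 with a value. At day 10, 15 of 35 tested were above 0 with a median of -0.01, beside 53.1% of all genes above 0. At day 14, 17 of 34 were, with a median of 0.00, beside 52.2%, and 0 were called by limma at either day. At day 10 the smallest p-values were those of Rabex-5, an exchange factor for the endosomal GTPase Rab5 (-0.07, 0.93 and 1.35 on replicates 1, 3 and 4, mean 0.74, adjusted p = 0.231), of shi, the dynamin that pinches off clathrin-coated vesicles (-0.43, -0.24, -0.05 and -0.52, mean -0.31, adjusted p = 0.245), and of the SNARE gene Vti1a (-0.38, -0.26 and -0.34, mean -0.33, adjusted p = 0.276). Rabex-5 had its low value on replicate 1 and its high values on replicates 3 and 4, as Sec5 did. At day 14 they were AP-2sigma, of the endocytic clathrin adaptor (0.31, 0.29 and 0.27, mean 0.29, adjusted p = 0.656), twr, a subunit of signal peptidase (mean -0.36, adjusted p = 0.752), and SrpRalpha, of the signal recognition particle receptor (-0.32, -0.45 and 0.00, mean -0.26, adjusted p = 0.752).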

How the data were processed

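Ratios were measured on 12 two-colour spotted cDNA arrays of heads. The deposited values are log2 ratios, 1 per spot and array (base assumed). Per the series text and the submitters' processing notes, the authors quantified images with GenePix Pro 6.0, normalized by ratio in Acuity 4.0, filtered spots on saturation, uniformity and signal to noise, and used SAM 2.21. Intensities were not analysed here, so the number of arrays limits the precision. All 12 columns matched a sample.

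Of 27648 spots, 15116 carry 1 gene in the platform table, 102 several (left out) and 12430 none. Symbols of 14894 spots were updated through a RefSeq table. Each array's median was set to 0 and spots were averaged per gene (60 members had 2 spots, 4 had 4). The day 8 columns were joined into 1 sample of 8883 spots. limma 3.58.1 (R 4.3.3, lmFit and eBayes, prior degrees of freedom 5.08) fitted 5286 genes on the 8 arrays of days 10 and 14. The fit was also run on simulated data with independent noise on each array. That run held neither the array pairs of day 10 nor turned signs, so it does not cover these. Every test is two-sided. Secretory and endosomal roles come from 13 lists of textbook roles. Arrays with the same replicate number were checked for pairing between days: their deviations from the day means had an r of -0.10, 0.30, 0.15 and 0.12. Arrays with different numbers had an r of -0.27 to 0.32, so arrays with the same number did not stand out. With the signs in doubt this does not exclude a pairing, and the arrays were fitted as unpaired. Where a replicate was left out, the same genes were tested with at least 2 remaining arrays.

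The members and lists were chosen with earlier results of these data known. Values per array are given for the 10 members with the smallest p at each day, the 5 for the difference, those with a day 8 value and the extremes of each class; those given for other members were chosen after their values were seen. Genes outside the members are the 3 with the smallest p of the further list at each day. Sequences and promoters of the members were not used here.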

Additional observations from a re-analysis of the deposited data

Results flagged for a closer look

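In 2 of 56 groups of 4 arrays examined for a lone value, 1 array stood far from the other 3, and chance flags about 1 in 20 groups. Vps24 had 0.50 on day 10 replicate 4 against 0.16, 0.18 and 0.12 on the others, and Vps37B, an ESCRT-I subunit, had 0.63 on the same array against 0.02, 0.00 and 0.06.

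In 3 members every array of day 14 lay on one side of 0 and every array of day 10 on the other, and the difference was not tested because a day had only 2 values. The share of all genes with this pattern was not counted, so it cannot be said whether 3 members are more than among other genes. Sec61beta averaged 0.04 at day 14 and -0.19 at day 10, Snx21 -0.15 and 0.15, and Vps51 -0.21 and 0.29.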

How the results depend on the processing

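Of 1275 recomputed values of 37 named members under the alternatives, 1099 kept their direction and side of the threshold or moved by less than the spread between arrays. Another 128 moved further, all with signs turned or with the values as deposited. A further 30 were called in the reversed direction, and 18 were called in the same direction. Among these 18 was Sec5 at day 10 without replicate 1 (mean 1.45, adjusted p = 0.046 in limma), from replicates 3 and 4 alone. No member was called when the signs of replicates 2 and 3, 2 and 4 or 3 and 4 were turned. Turning day 10 replicates 1, 2 and 3, as their labelling text would have it, made secretory minus endosomal 0.07 at day 10 in place of -0.06.

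Without setting array medians to 0, 30 of 30 members were called above 0 at day 14 and 25 of 25 for day 14 minus day 10, as were 3001 and 2351 genes, because the deposited day 14 columns have medians of 0.558 to 1.588. The means at day 14 then turned to 1.04 (ALiX), 0.87 (Arl5), 1.18 (Chmp1), 0.97 (Clc), 1.22 (Exo70), 1.19 (Exo84), 1.15 (Rab27), 1.18 (Rab3-GAP), 0.91 (Rab30), 0.82 (Sec15), 0.73 (Sec22), 1.06 (Sec61gamma), 1.17 (Sec63), 1.05 (Snx17), 0.98 (Vps35), 1.03 (Vps51) and 0.79 (betaCOP). The differences turned to 1.26 (ALiX), 1.05 (Arl5), 1.21 (Clc), 1.29 (Exo70), 1.39 (Rab27), 1.04 (Sec15), 0.94 (Sec20), 1.26 (Sec22), 1.45 (Sec3), 1.30 (Sec63), 1.05 (Snx1), 1.11 (Snx17) and 1.12 (Vps24).

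Genes called at day 10, 0 in the analysis above, were 3 with values required on all 4 arrays, 2 with one-class SAM, and 0 to 79 with 1 replicate left out (79 without replicate 1, 14 without replicate 2 and 1 without replicate 4); the cause was not tested. Of the members, 0 to 1 were called (Sec5 without replicate 1). For day 14 minus day 10, 1 gene and 0 members were called with the replicate number as a block, and 0 to 3 genes with 1 replicate left out (3 without day 10 replicate 1). Secretory minus endosomal ran from -0.09 to -0.02 at day 10 and from -0.07 to -0.03 at day 14 with 1 replicate left out.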
